A study of Sus scrofa with 2 samples.

Results

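The genes described here are the transcription factors of the homeobox, forkhead, SOX, GATA, KLF, T-box and nuclear receptor families on the EMPV1 array, a porcine embryo-specific oligonucleotide array. They were taken by the start of the gene symbol in the platform annotation, and the rule found 195 probes for 143 genes, of 18121 named probes for 11938 genes and of 43794 probes in all. NR5A2, NR0B1 and GATA6 match the pattern but are left out by the rule. Another 3 symbols fit the pattern but do not belong to the families: POU2AF1, a coactivator that binds POU factors in B cells, TBXA2R, the thromboxane A2 receptor, and TBXAS1, the thromboxane synthase. The other 140 genes fell into 12 families: 27 HOX, 27 forkhead, 22 nuclear receptor, 13 KLF, 12 SOX, 10 TBX, 9 POU, 7 LHX, 6 PAX and 3 GATA genes, the 3 sine oculis genes SIX2, SIX4 and SIX6, and NOBOX.

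The RNA came from 2 single cumulus-oocyte complexes (COC) of Large White pigs, named COC7 and COC4, that were aspirated from mature follicles of gilt ovaries collected at a slaughterhouse and served to check the array on somatic and germ cells together. No treatment separates the complexes in the labels, and neither age nor follicle size is given. Array 1 carried COC7 in Cy5 and COC4 in Cy3, and array 2 carried COC4 in Cy5 and COC7 in Cy3. Both arrays hold the same 2 RNAs, so there was 1 complex on each side, the arrays are technical repeats, and no test of a difference between complexes was possible. A complex is an oocyte with its cumulus cells, so fewer cells of a type and less RNA per cell cannot be told apart.

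Transcription factors bind short DNA motifs through a domain that the members of a family share, such as the homeodomain, the winged helix of forkhead proteins or the zinc fingers of GATA, KLF and nuclear receptor proteins. In the ovary, factors of these families divide the labour between cells: NOBOX and LHX8 drive oocyte genes, FOXO1 and the steroidogenic factor NR5A1 act in granulosa cells, and NR2F2 marks theca and stroma. HOX genes set the position of cells along the body axis and lie in the clusters A, B, C and D, with the number in the name following the order in the cluster.

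All values are log2 ratios of COC7 over COC4. The sign of array 2 was turned so that a positive value lies on the COC7 side on either array, and a mean is given as ± its distance to either array, which is technical spread and also holds any preference for a dye. The direction is likely and not settled: Cy5 was put on top because the labels list that channel first, and the reverse direction would flip all signs at once and exchange the sides. Only ratios were used, so whether a gene was present in a complex was not measured here.

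The ratios of the factors between the complexes were small, as were those across the array. The median size of the mean ratio, without its sign, was 0.0878 over the member probes and 0.0876 over all probes. No member probe was past 2-fold on the mean of both arrays, against 0.174% of all probes (76 of 43794). One probe, for KLF16, was past 1.5-fold, which is 0.513% of the member probes, against 1.7% of all probes. With 195 member probes these counts are too small to set the factors apart from the array. The gene means ran between -0.58 for NR2F2 and 0.64 for KLF16, with an SD of 0.15 over the 143 genes, against 0.19 over all named genes. Of the 143 genes, 87 lay above 0 and 56 below, with a median of 0.025, while 52.0% of all named genes lay above 0 with a median of 0.0062. On array 1 alone 76 of the 143 were above 0 and on array 2 alone 73, against 5790 and 6369 of all 11938 named genes. The count of 87 was thus reached on neither array alone.

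The repeat of the measurement was weak for these probes, as it was across the array. Only 77 of the 195 member probes (39.5%) had the same sign on both arrays, against 37.1% of all probes. Between the arrays, the turned ratios correlated at r = -0.43 (rho = -0.37) over the 195 member probes and at r = -0.27 (rho = -0.33) over all 43794 probes. These correlations are across probes that share both RNAs and both slides, and probes are not independent replicates. The distance of an array from the mean, taken with its sign, had an SD of 0.248 over the member probes and 0.246 over all probes. It holds effects of dye, slide and noise, which cannot be told apart with 1 slide for each dye order. The mean ratio, which holds the difference between the complexes and noise, had an SD of 0.16, against 0.19 over all probes. That signed distance was larger in size than the mean in 118 of the 195 member probes and in 27551 of all 43794 probes. By arithmetic these are the probes with opposite signs on the arrays, so the count adds nothing to the sign count above. A rule of 1.25-fold and 1 sign on both arrays took 6 member probes on the COC7 side (3.08%, against 3.16% of all probes) and 3 on the COC4 side (1.54%, against 3.04%). The first share is near the background, and the second rests on 3 probes and was not tested against it. The 6 probes on the COC7 side were those for KLF16, TBXA2R, HOXB7, both for FOXO1 and 1 of 10 for NR1H3. The 3 probes on the COC4 side were those for NR2F2 and KLF9 and 1 of 2 for NR2F6.

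**Figure D1:**
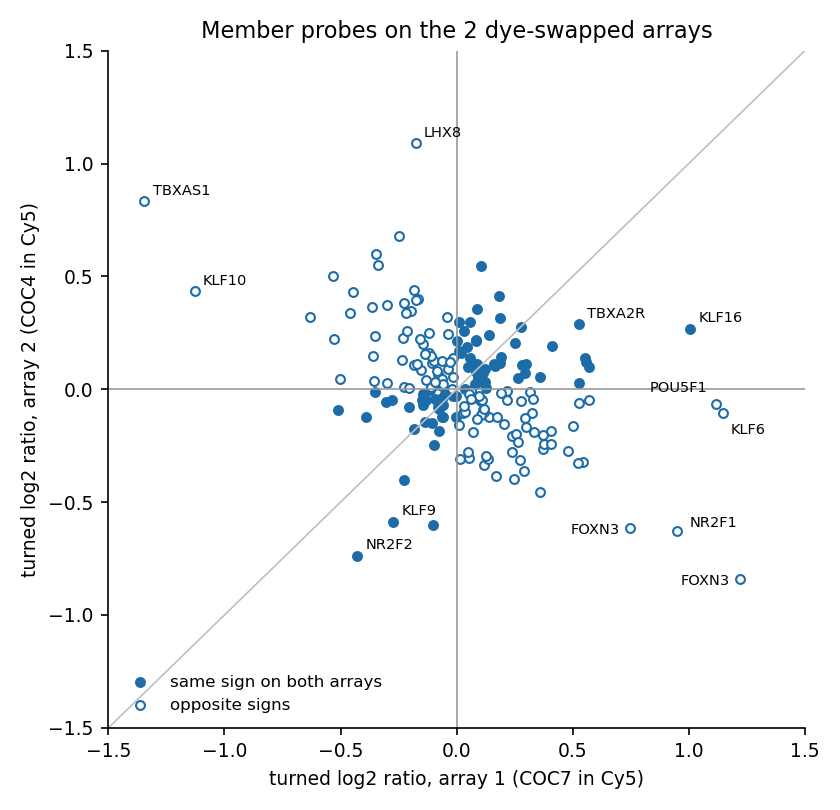
Turned log2 ratio of each of the 195 member probes on array 1 (x axis) and array 2 (y axis), with filled points for the 77 probes of the same sign and open points for the others, and a line where both arrays are equal. The cloud runs from upper left to lower right (r = -0.43), and KLF16, NR2F2 and KLF9 lie far out in the quadrants of equal sign.

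Among the families with more than 1 gene, HOX had the highest median over the mean of both arrays. Of 27 HOX genes, 21 lay above 0, and the family median was 0.083 (0.12 on array 1 and 0.047 on array 2). On array 2 alone the medians of the genes SIX2, SIX4 and SIX6 (0.22), LHX (0.14), GATA (0.067) and forkhead (0.055) were higher than that of HOX. On each array alone 18 of the 27 were above 0, whereas over all named genes 5790 of 11938 were above 0 on array 1 and 6369 on array 2. The same sign on both arrays was seen for 13 of the 27 HOX genes (48.1%), against 38.7% of all named genes. The shift is small beside the spread of the genes, whose SD was 0.13, and no HOX gene was past 1.5-fold.

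The family medians of the other groups of more than 5 genes, taken over the mean of both arrays, lay between -0.011 for SOX and 0.062 for LHX. On single arrays they lay farther apart, and several changed sign. The median on array 1 and on array 2 was 0.10 and -0.048 for KLF, 0.078 and -0.059 for TBX, 0.060 and -0.11 for PAX, -0.014 and 0.055 for forkhead and 0.0090 and 0.14 for LHX genes. Forkhead genes had 16 above 0 and 11 below (median 0.018, SD 0.13), and nuclear receptors had 12 above and 10 below (median 0.017, SD 0.16). SOX genes were the tightest of these families, with an SD of 0.077 and 5 genes above 0 against 7 below. TBX genes were split evenly, 5 and 5, with an SD of 0.094, and PAX genes 3 and 3, with an SD of 0.093. KLF genes had a median of 0.010 and the widest spread, with an SD of 0.29, since KLF16 and KLF6 lay high and KLF9 low. Of 9 POU genes 7 lay above 0, but only POU1F1 had the same sign on both arrays, and 6 of 7 LHX genes lay above 0, of which 2 had the same sign on both arrays.

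**Figure D2:**
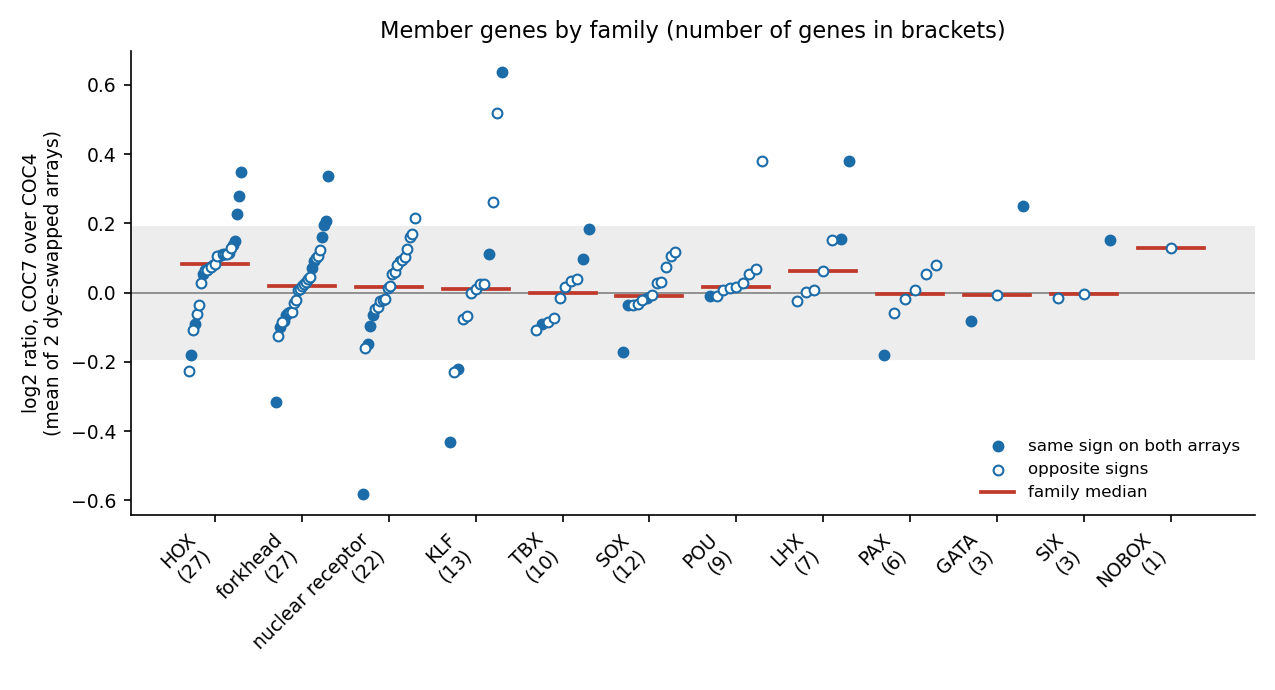
Mean log2 ratio of COC7 over COC4 for each of the 140 factor genes (y axis) by family (x axis), filled where both arrays had the same sign and open where they did not. Red lines are family medians and the grey band is 1 SD of all named genes (0.19) on either side of 0. The HOX median is at 0.083, and KLF genes are spread most.

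By cluster, the counts were as follows. In HOXA and in HOXD 7 of 8 genes lay above 0 in the mean, in HOXB 4 of 8, and in HOXC 3 of 3. The sign repeated between the arrays in 3 of 8 HOXA, 2 of 8 HOXB, 3 of 3 HOXC and 5 of 8 HOXD genes. On array 1 alone 6 HOXA, 4 HOXB, 3 HOXC and 5 HOXD genes were above 0, and on array 2 alone 5, 4, 3 and 6. A difference between the clusters was not tested, and each of HOXA, HOXB and HOXD had an SD larger than the distance between any of their medians. HOXB7 was the farthest HOX gene on the COC7 side, at 0.55 on array 1 and 0.14 on array 2 (mean 0.35 ± 0.21). HOXA4 came next, with 0.53 on array 1 and 0.030 on array 2 (mean 0.28 ± 0.25). HOXD9 was lower in its mean, but its arrays were close to each other, at 0.25 and 0.20 (mean 0.23 ± 0.024). HOXD10 (0.16 and 0.11) and HOXD11 (0.12 and 0.090) lay beside it in the cluster and on the same side on both arrays.

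HOXC4 had ratios of 0.19 and 0.11, HOXC5 of 0.092 and 0.049 and HOXC12 of 0.045 and 0.19 on arrays 1 and 2. On the COC4 side the farthest HOX gene with 1 sign was HOXD13, which patterns the limb ends and the genital tubercle, at -0.30 and -0.058 (mean -0.18 ± 0.12). HOXA2 was lower in its mean (-0.23 ± 0.27), but its arrays lay at -0.50 and 0.047, on different sides. By position in the cluster, 5 of 9 genes numbered 1 to 4 lay above 0 in the mean, 8 of 9 numbered 5 to 8 and 8 of 9 numbered 9 to 13. On array 1 alone the counts above 0 were 6, 5 and 7 in that order, and on array 2 alone 5, 6 and 7. The same sign on both arrays was seen for 4, 2 and 7 of the 9. HOX genes have similar homeobox sequences, within and between clusters, and cross-hybridization between their probes was not tested. Of the HOX cofactors of the TALE class, the PBX and MEIS proteins and their relatives, 1 of 7 measured genes lay above 0, with a median of -0.063. By array the count turned over, with 2 of 7 above 0 on array 1 (median -0.19) and 5 of 7 on array 2 (median 0.067), and the sign repeated in 2.

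**Figure D3:**
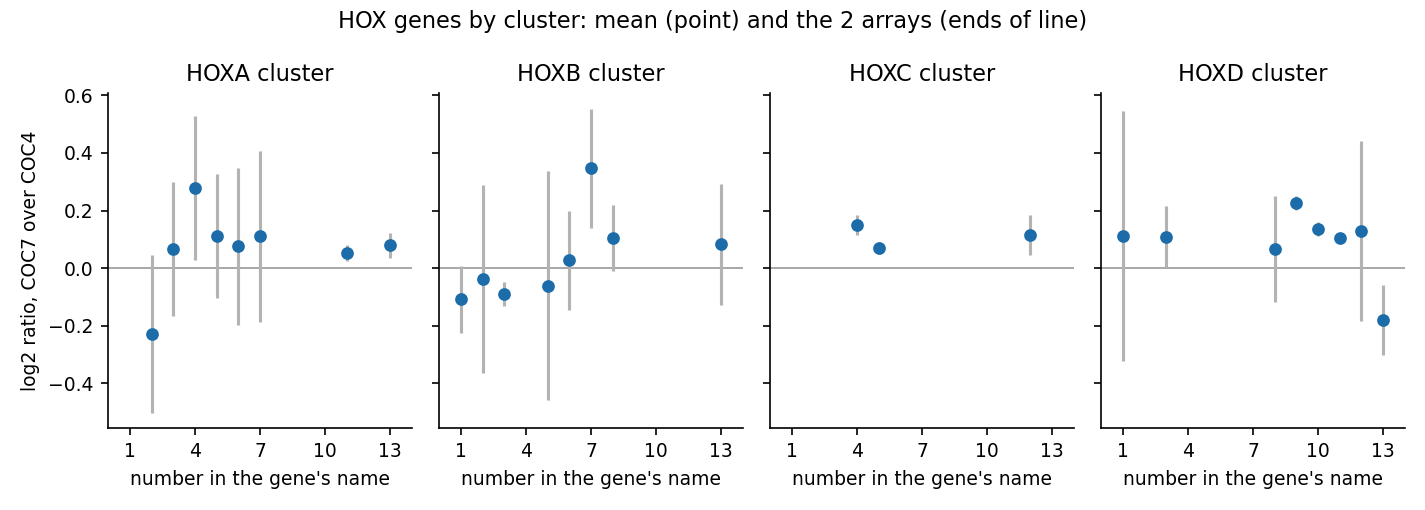
Log2 ratio of COC7 over COC4 (y axis) of the 27 HOX genes by the number in the gene's name (x axis), 1 panel for each cluster, with the mean as a point and the 2 arrays as the ends of the line. Short lines, such as those of HOXD9 to HOXD11 and the HOXC genes, mark genes whose arrays were close; HOXB genes numbered 1 to 5 lie below 0.

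Of 8 factors known from oocytes and primordial follicles, 5 lay above 0, and the sign repeated between the arrays in 1. That gene was LHX8, a LIM homeobox factor that oocytes of young follicles need in mice, at 0.12 on array 1 and 0.64 on array 2 (mean 0.38 ± 0.26). Its 2 probes differed in how well they repeated. One read 0.41 and 0.19 on arrays 1 and 2, and the other -0.18 and 1.09. NOBOX, the oocyte homeobox factor, had 1 probe at 0.28 on both arrays and another at 0.24 and -0.28, so that the gene mean was 0.13 ± 0.13. POU5F1, the pluripotency factor also called OCT4 and carried in oocytes, averaged 0.38 ± 0.44. Both of its probes were above 0 on array 1 (0.53 and 1.12) and below 0 on array 2 (-0.060 and -0.066), so the gene had no settled side.

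The remaining oocyte factors lay nearer to 0 in their means. FOXO3, which holds primordial follicles dormant in mice, read -0.35 and 0.24 on arrays 1 and 2. SOX15 read -0.34 and 0.55, and POU2F1, a widely expressed octamer-binding factor, 0.21 and -0.10. LHX9, a factor of the early gonad, averaged -0.023 ± 0.076 and TBX20 -0.072 ± 0.084. Among the oocyte markers 3 of 9 were above 0 on array 1 and 9 of 9 on array 2, with a median of the means of 0.155, between -0.098 for BTG4 and 0.70 for ZAR1. Their part in the LHX8 and NOBOX values was not tested.

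Of 10 factors known from granulosa and cumulus cells, 4 lay above 0 and 6 below, and in 4 the sign repeated between the arrays. FOXO1, a forkhead factor of growing granulosa cells that is lowered by FSH signalling in rodents, lay on the COC7 side at 0.56 on array 1 and 0.11 on array 2 (mean 0.34 ± 0.23). Its 2 probes were nearly equal, at 0.57 and 0.56 on array 1 and 0.099 and 0.12 on array 2. Of 9 measured genes of the kinase pathway that moves FOXO proteins out of the nucleus, 5 lay above 0 and none was past 1.5-fold. On array 1 alone 5 of the 9 were above 0, and on array 2 alone 2. The 14-3-3 proteins, which bind phosphorylated FOXO, were on different sides: YWHAZ averaged -0.46 ± 0.068 and YWHAE -0.41 ± 0.16, while YWHAB read 0.31 and -0.11 (mean 0.099 ± 0.21). They were picked out after their values were seen.

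KLF9, a zinc finger factor that takes part in progesterone responses, lay on the COC4 side at -0.27 and -0.59 (mean -0.43 ± 0.16). SOX9, the Sertoli cell factor that granulosa cells keep low in mice, read -0.099 and -0.25 (mean -0.17 ± 0.073). NR5A1, steroidogenic factor 1, averaged -0.15 ± 0.14, with -0.29 on array 1 and -0.010 on array 2. These 3 genes were on the COC4 side on both arrays, NR5A1 barely so on array 2. The genes of this group with opposite signs were KLF4 (0.57 and -0.048), NR2C2 (0.50 and -0.16), SOX4 (0.34 and -0.19), NR4A3 (0.36 and -0.46), NR4A2 (-0.36 and 0.037) and the glucocorticoid receptor NR3C1 (-0.20 and 0.12). NR4A2 and NR4A3 are immediate early receptors that the LH surge induces in follicles of rodents. Among the markers of cumulus and granulosa cells 3 of 9 lay above 0, with a median of -0.16, but 1 of 9 was above 0 on array 1 (median -0.47) and 5 of 9 on array 2 (median 0.018), and the sign repeated in 3. Of the cumulus matrix genes, TNFAIP6 (-0.68 and -1.87) and HAS2 (-0.47 and -1.31) were below 0 on both arrays, and PTX3 read 0.78 and -0.13. INHA (-2.70 and 0.97) and FST (-2.08 and 1.40) had opposite signs. The part of these markers in the KLF9, SOX9 and NR5A1 values was not tested.

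NR2F2, also called COUP-TFII, was the member farthest on the COC4 side. It read -0.43 on array 1 and -0.74 on array 2, with a mean of -0.58 ± 0.15, just inside the 1.5-fold line at 0.585 on this scale. Its close relative NR2F1 (COUP-TFI) did not have a side, with 0.95 on array 1 and -0.63 on array 2, which put either array 0.79 away from the mean. The third relative, NR2F6, was the only gene whose probes differed by more than 0.5: 1 read -0.10 and -0.60 and the other 0.089 and 0.36, on opposite sides of 0. NR2F2 has 1 probe, so its value could not be set against another.

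The other factors of theca and stroma in the list did not follow NR2F2. FOXP1 averaged -0.13 ± 0.18, FOXP2 0.025 ± 0.15 and the mineralocorticoid receptor NR3C2 0.21 ± 0.46, each with opposite signs on the arrays. In the mean, markers of theca, stroma and vessel were mostly on the same side as NR2F2, with 7 of 8 below 0. Their median was -0.16, from -2.13 for the pericyte gene RGS5 to 0.032 for PECAM1. On array 1 alone 1 of the 8 was above 0 and on array 2 alone 3, and the sign repeated in 4. Decorin (DCN), a stromal matrix gene, read -0.28 and -0.51, and STAR -0.093 and -0.17. The smooth muscle actin gene ACTA2 read -1.24 and 0.85, CYP17A1 0.069 and -0.18 and COL1A1 -0.17 and 0.15, each with opposite signs. The part of these markers in the NR2F2 value was not tested. Of 2 measured blood and immune markers, 1 lay above 0 and 1 below.

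**Figure D4:**
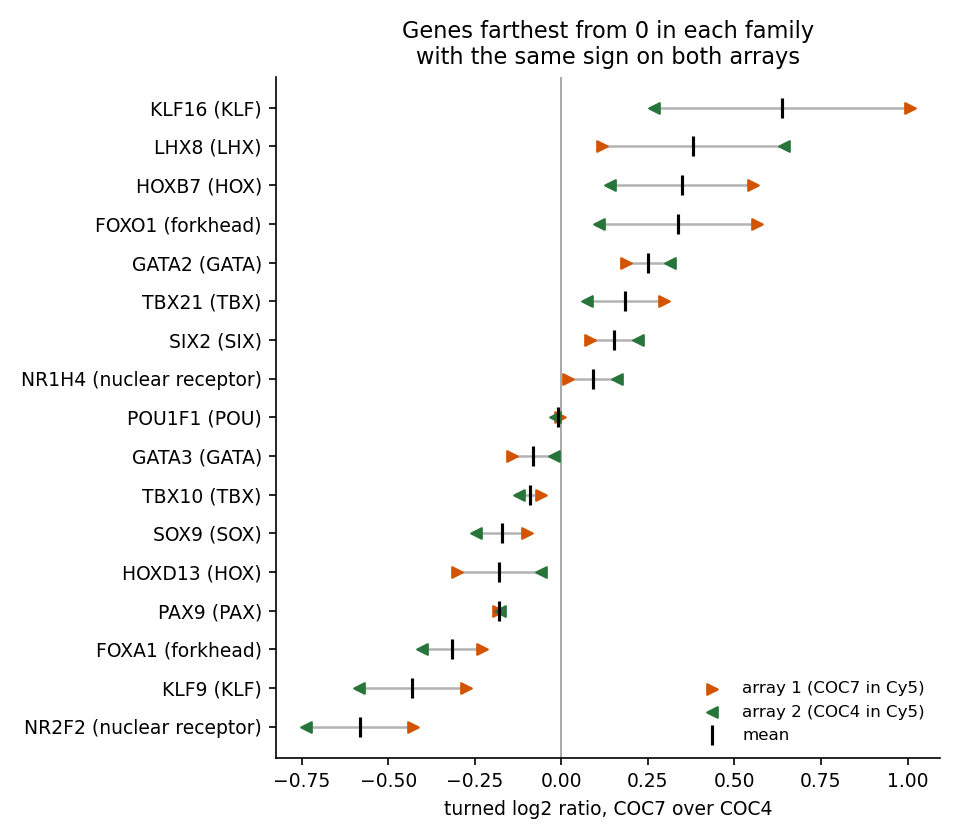
Turned log2 ratio of COC7 over COC4 (x axis) of the genes farthest from 0 on each side within each family, among those with the same sign on both arrays, with array 1 in orange, array 2 in green and the mean as a black tick. KLF16 is highest at 0.64 and NR2F2 lowest at -0.58, and each array lies 0.37 from the mean for KLF16.

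KLF16, a repressor that binds GC-rich promoters and dopamine receptor genes in mice, was the one gene past 1.5-fold. It read 1.01 on array 1 and 0.27 on array 2 (mean 0.64 ± 0.37, 1.56-fold), so the 1.5-fold line was passed on array 1 and not on array 2. KLF6 averaged 0.52 ± 0.63, with 1.15 on array 1 and -0.11 on array 2, and has no settled side. KLF5, a factor of the trophectoderm and epithelium, read 0.25 and -0.40. KLF3, a repressor that works with CtBP, had both probes on the COC4 side (gene mean -0.22 ± 0.10). KLF13 had both on the COC7 side (0.11 ± 0.055), while KLF10, which responds to TGF-beta, had both probes below 0 in the mean but opposite signs on the arrays.

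The nuclear receptors that sense lipids, sterols and retinoids were near 0 in their means, and for most of them the arrays lay on different sides. Of 9 such genes 8 lay above 0 (4 on array 1 alone and 6 on array 2 alone), but all means were between -0.023 and 0.12, and for 1 gene the sign repeated. That gene was NR1H4, the bile acid receptor FXR, at 0.019 and 0.16. All 6 retinoic acid and retinoid X receptors lay above 0 in the mean and none had the same sign on both arrays. RARA (0.48 and -0.28), RXRB (0.41 and -0.24) and RXRG (0.26 and -0.24) were above 0 on array 1, and RARB (-0.35 and 0.60), RXRA (-0.22 and 0.34) and RARG (-0.014 and 0.055) on array 2. The arrays were closest for RARG, at 0.020 ± 0.034. With opposite signs, the size of each of the 6 means is by arithmetic smaller than its distance to either array.

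The gene means of the liver X receptors, which sense oxysterols, were also below 0 on array 1 and above 0 on array 2. NR1H2 (LXR-beta) read -0.40 and 0.36. NR1H3 (LXR-alpha) had 10 probes, the most of any member, whose means ran between -0.11 and 0.33 with a gene mean of 0.054 ± 0.11. The gene read -0.052 and 0.16, but on array 1 its probes lay on both sides of 0, from -0.36 to 0.10. Around these receptors, 7 of 9 measured genes of retinoid supply and breakdown lay above 0 (median 0.018), 8 of 15 other nuclear receptors (median 0.010) and 6 of 13 nuclear receptor coregulators (median -0.00046). On array 1 alone the counts above 0 were 4, 7 and 4 in that order, and on array 2 alone 6, 9 and 7. No gene of these 3 lists was past 1.5-fold.

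Of 10 factors of pluripotency and the first lineages of the embryo, POU5F1 and KLF4 among them, 4 lay above 0 in the mean, 7 on array 1 alone and 2 on array 2 alone. GATA2 and GATA3, trophectoderm factors, parted: GATA2 read 0.19 and 0.31 (mean 0.25 ± 0.064) and GATA3 -0.14 and -0.022 (mean -0.082 ± 0.060). GATA5 was at -0.0060 ± 0.073. FOXA1, a pioneer factor of endoderm, lay on the COC4 side at -0.23 and -0.40 (mean -0.32 ± 0.087), and its relative FOXA2 read 0.52 and -0.32. SOX2, the partner of POU5F1 in embryonic stem cells, was at -0.022 ± 0.054, NR6A1 (germ cell nuclear factor) at -0.023 ± 0.11 and TBX3, with 4 probes between -0.14 and 0.19, at -0.017 ± 0.15. Of 5 GATA and SOX partners measured, 4 lay above 0 in the mean (median 0.049), 4 on array 1 alone and 0 on array 2 alone.

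Forkhead genes of the cell cycle and of general function lay above 0 in the mean in 4 of 4 cases (2 on array 1 alone and 3 on array 2 alone), between 0.0097 for FOXM1, a driver of mitotic genes, and 0.19 for FOXN2. FOXN2 was the only one of them whose sign repeated (0.28 on array 1 and 0.11 on array 2). FOXK1 averaged 0.031 ± 0.094. FOXN3, a checkpoint repressor, had 4 probes with close means, between 0.066 and 0.19, but 2 of these probes had opposite signs on the arrays, at 1.22 and -0.84 and at 0.75 and -0.61.

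The smaller families held few genes with 1 side. SIX2, a kidney progenitor factor, read 0.084 and 0.22 (mean 0.15 ± 0.068), while SIX4 (-0.53 and 0.50) and SIX6 (0.11 and -0.12) averaged -0.015 and -0.0041. PAX9, a factor of thymus and tooth, was at -0.18 on both arrays. TBX21, the T-bet of T helper cells, read 0.30 and 0.074 (mean 0.18 ± 0.11) and TBX10 -0.058 and -0.12. POU1F1, the pituitary factor, averaged -0.011 ± 0.0081 over 5 probes. Outside the families, TBXA2R lay on the COC7 side at 0.53 and 0.29 (mean 0.41 ± 0.12), TBXAS1 read -0.85 and 0.41 and POU2AF1 -0.061 and -0.12.

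For 29 member genes there were several probes, which give a check within the gene. In 14 of the 29 all probes lay on one side of 0 in the mean of both arrays. The share over all named genes with several probes was not counted, so the 14 cannot be set against the array as a whole. One side in the mean can also go with opposite signs on the arrays, as for POU5F1 and KLF10. The distance between the highest and lowest probe had a median of 0.19 and reached 0.57 for NR2F6. FOXO1, LHX8 and POU5F1 stood highest among the genes with several probes, with both probes of each above 0.2 in the mean. KLF10 and KLF3 stood lowest.

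**Figure D5:**
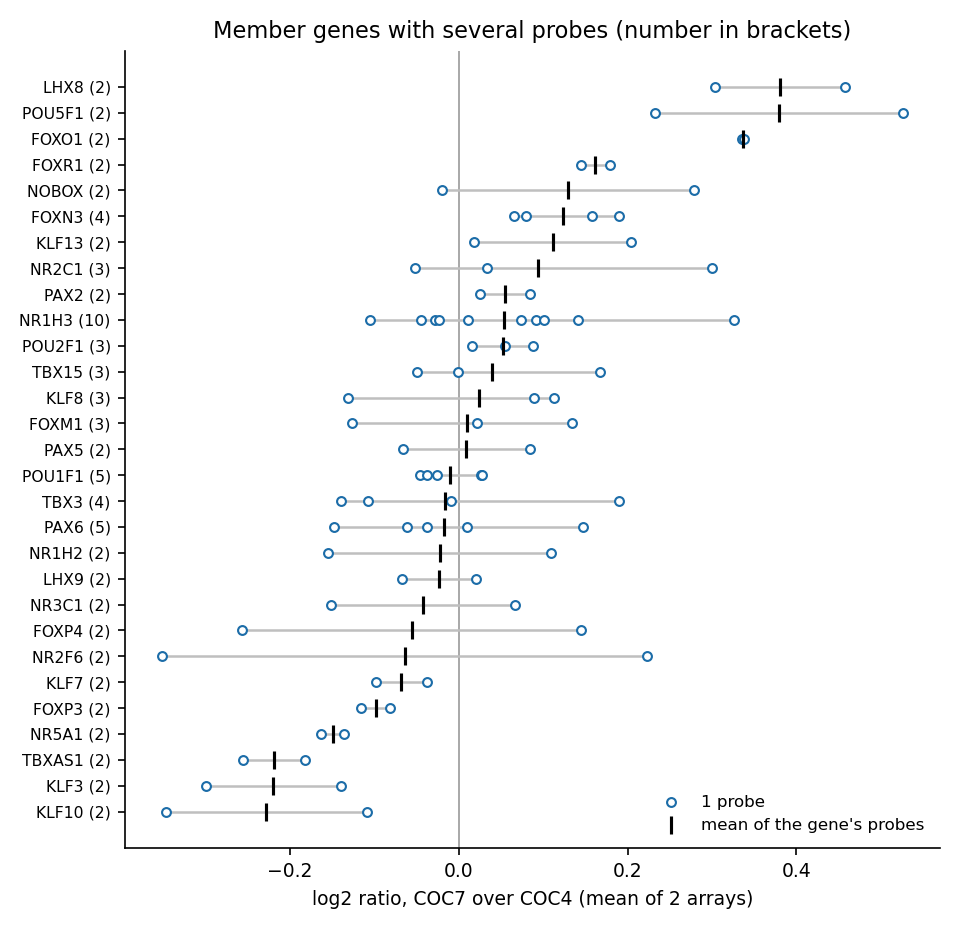
Mean log2 ratio of COC7 over COC4 (x axis) of each probe, open points, and of the gene, black tick, for the 29 member genes with several probes (number in brackets). FOXO1 probes nearly coincide, and the probes of NR2F6 lie 0.57 apart on opposite sides of 0.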

How the data were processed

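The authors extracted RNA from single COC, amplified it in 2 rounds with T7 RNA polymerase, labelled the product with Cy3 and Cy5, read the slides in GenePix Pro with background subtraction, and normalized within and across arrays in FlexArray. The deposited values used here are log2 ratios, 1 per probe and array. The log scale was read from the fold lines of the study's plot, and neither the method of normalization nor the direction of the ratio is given in the sources used here. The 2 columns of the full table name no sample in the labels and were not used, so signal levels, control spots and detection were not analysed here, and precision is limited by the array number of 2.

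Array 2 was turned in sign and averaged with array 1 (Python 3.11.15, pandas 2.3.3, numpy 2.4.6). Probes were named from GEO's platform annotation: 18121 had 1 symbol, 0 several and 25673 none. Probes of 1 symbol were averaged per gene. All 143 member symbols stand in the RefSeq gene table (Sscrofa11.1), and of 41 member probes with an accession 36 matched it, all to the same symbol. With 1 complex on each side no test was run. Scripts were tested on simulated ratios whose set changes were larger than any member mean, so that check does not bear on changes of the size given here. Genes were named where the mean was at or past 1.5-fold, where they were farthest from 0 on either side of a family with 1 sign on both arrays, where they stood in a role list, in families of 3 or fewer genes, or where probes differed by 0.5 or more. HOXA2, HOXA4, HOXC and HOXD genes, KLF3, KLF6, KLF10, KLF13, YWHAZ, YWHAE, YWHAB and the markers given with values were picked after their values were seen. The members and lists were chosen with earlier results of these data known. Alternatives were single arrays, centring, single probes against genes, the factor families alone and other fold lines.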

Additional observations from a re-analysis of the deposited data

How the results depend on the processing

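No paired analysis was possible because the 2 arrays hold the same pair of complexes and no second pair was measured. On array 1 alone, and on array 2 alone, the probes past 2-fold numbered 1 to 6, and those past 1.5-fold 9 to 10, on ratios in which the dye is not balanced. The 6 probes past 2-fold on array 1 are 3.08% of the members, against 1.42% of all probes, and the 1 on array 2 is 0.513%, against 0.744%. For 1.5-fold on a single array, or on each array, the share of all probes was not counted. The median of the member genes was 0.0089 to 0.032 on single arrays. The family medians on single arrays ran from -0.056 to 0.0072 for nuclear receptors, -0.038 to -0.027 for SOX, -0.019 to -0.0029 for POU and 0.084 to 0.22 for the genes SIX2, SIX4 and SIX6 together. The HOX median stayed above 0 on both (0.047 to 0.12). Counted by gene, 48 of 143 had the same sign on both arrays (33.6%, against 38.7% of all named genes). With 1.5-fold in place of 2-fold there was 1 probe, past 1.5-fold on each array there were 0, and by 1.25-fold with the same sign, a rule added after the data were seen, there were 9. The cause of these shifts was not tested beyond the change of array or line itself. Of the 59 genes named by the rules, some of them chosen for 1 sign, 37 had the other sign than their mean on 1 of the arrays. Of all 11938 genes with a symbol, 7321 had opposite signs. Centring each array takes the same amount from every gene mean, and keeping the factor families alone changes no value of a gene that stays. The 115 values that these 2 alternatives gave for the named genes therefore could not move by more than that amount (0.0008 at most). They are no check of these genes. These alternatives use the same arrays and say nothing of the spread between complexes. Centring on the control spots, removing a trend over the slide and using the full table were not run, since that table's columns could not be assigned to the samples.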
